A study of Homo sapiens with 2 samples.

Results

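DNA repair and damage signalling genes were compared between HCT116 cells that had received siRNAs against JMJD1A and JMJD1B and HCT116 cells that had received a control siRNA. HCT116 is an established human colorectal carcinoma line. RNA was taken 2 days after transfection and hybridized to single-channel oligonucleotide arrays, with 1 array for each group. The genes targeted, listed on the platform as KDM3A (JMJD1A) and KDM3B (JMJD1B), encode demethylases of histone H3 lysine 9. The genes were a list of 46 symbols, drawn up with earlier results of these data known, and their probe sets were found by the platform's gene symbol. Of these 46 genes, 42 had a probe set that carried their symbol and no other, and 41 were measured, among 12561 measured genes in all. Where several probe sets shared a symbol, the one brightest on average over both arrays stood for the gene, which counted as measured where that mean reached the median of all gene probe sets, a signal of 50.4. FANCA, FANCD2, BRCA2 and PMS2 were not analysed here. XRCC3, which helps to resolve recombination intermediates, read 34.8 in the JMJD1A/JMJD1B siRNA cells and 48.3 in the control siRNA cells, below that level on both arrays, and was left out of the counts.

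Cells keep separate repair routes for separate lesions. Homologous recombination copies an intact sister strand to mend a broken one and acts in S and G2 phase, the Fanconi anaemia pathway unhooks interstrand crosslinks, and end joining ligates broken ends without a template. Mismatch, base excision and nucleotide excision repair remove wrong or damaged bases from one strand, and the kinases ATM and ATR signal breaks and stalled forks to the checkpoint kinases CHEK2 and CHEK1. Many recombination and Fanconi genes are known targets of the E2F factors and peak in S phase.

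With 1 array in each group, no difference below has a replicate check and none was tested. All of them describe these 2 samples. The only scatter that could be measured was that between probe sets of the same gene, whose SD was 0.54 on the log2 scale over the 6192 genes with at least 2 measured probe sets. It covers probe behaviour and not the spread between cultures. The arrays are named by their labels. KDM3B read 496 in the JMJD1A/JMJD1B siRNA cells and 3031 in the control siRNA cells, a log2 ratio of -2.61, while KDM3A read 3323 in the JMJD1A/JMJD1B siRNA cells and 3884 in the control siRNA cells, a log2 ratio of -0.22 that was smaller than the probe-set SD. Of 10 colon epithelial markers 9 were measured, against 2 of 6 markers of fibroblasts, 2 of 6 of leukocytes and 1 of 5 of endothelium. Of all 19775 genes with a probe set of a single symbol, 12561 were measured, so the level is a low one. The colon marker CEACAM5 read 94.6 in the JMJD1A/JMJD1B siRNA cells and 38.9 in the control siRNA cells. The fibroblast marker COL1A1 read 631 and 324 in the same order. Both examples were picked after their values were seen. The 18 hybridization control probe sets all gave more signal in the JMJD1A/JMJD1B siRNA sample (median log2 ratio 0.61), and with the arrays set level on them every log2 ratio here would be lower by that amount. In a bulk sample, fewer cells in S phase and less of a given transcript in each cell cannot be told apart.

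Repair transcripts were mostly lower in the JMJD1A/JMJD1B siRNA cells. Of the 41 measured genes, 32 (78.0%) had a log2 ratio below 0, against 47.9% of all measured genes. At least 2-fold lower were 8 genes (19.5%), against 8.53% of all measured genes, and 1 was at least 2-fold higher, against 8.91%. The 8 lower genes were NBN, ATR, UNG, BLM, LIG4, ERCC4, PALB2 and BRIP1, and the higher gene was ERCC1. The median log2 ratio was -0.48 over the 41 genes and 0.04 over all measured genes, a distance of -0.52. A log2 ratio of -0.54 or lower, beyond the probe-set SD, was found for 19 of the 41, against 21.2% of all measured genes. Counted by probe set, 67 of the 81 measured probe sets of these genes were below 0. At least 2-fold lower were 16, and 2, both on ERCC1, were at least 2-fold higher. These 81 include the brightest probe sets of the 41 genes counted above, so they are not a separate check. Of 24 genes with more than 1 measured probe set, 18 had all of them below 0, 1 had all of them above 0 and 5 had them on both sides. The matching shares over all measured probe sets, and over all genes with several, were not computed.

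**Figure D1:**
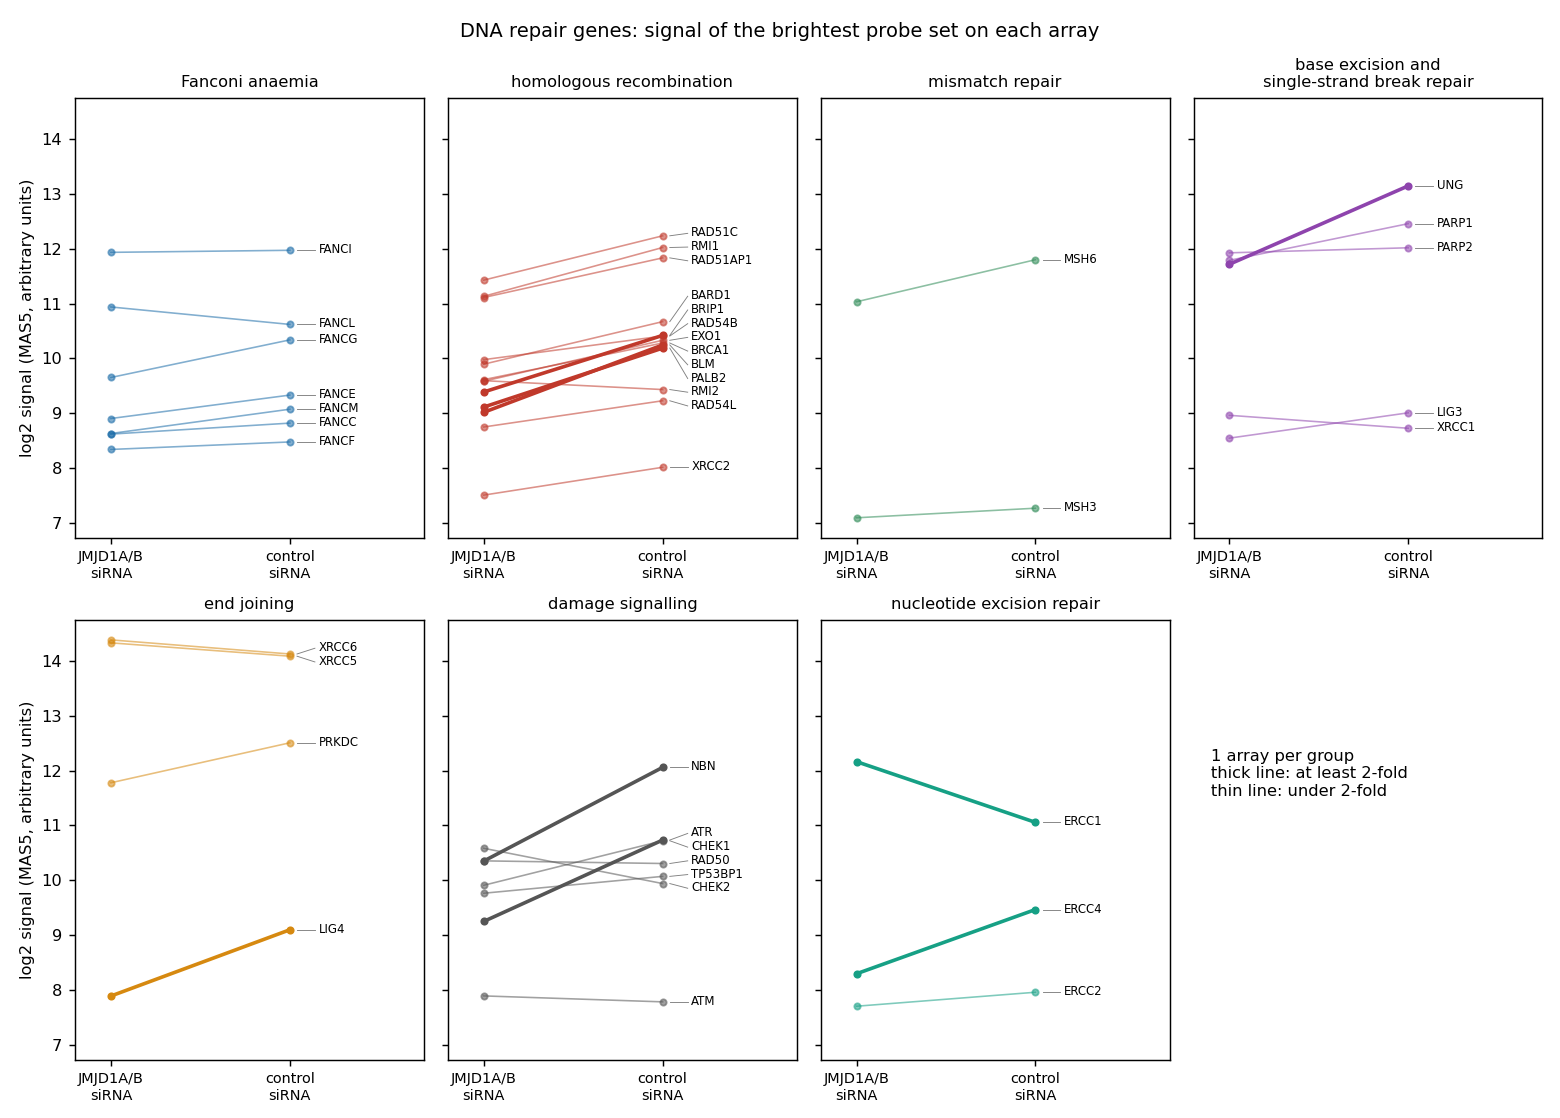
Log2 signal (MAS5, arbitrary units) of the brightest probe set of each of the 41 measured repair genes on the JMJD1A/JMJD1B siRNA array (left of each panel) and the control siRNA array (right), with 1 panel for each pathway, 1 line for each gene and thick lines for genes that differed at least 2-fold. Heights of different probe sets cannot be compared, but most lines are lower on the left, and ERCC1 has the only thick line that is higher on the left.

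Homologous recombination had the lowest median of the 7 pathways on the deposited scale, though not without probe sets ending in _x_at or _s_at, where damage signalling stood at -0.91, mismatch repair at -0.77 and homologous recombination at -0.76. Of 13 measured genes, 12 were below 0, against 47.9% of all measured genes. At least 2-fold lower were 3, against 8.53%, and the median log2 ratio was -0.75. The low rank holds for these listed genes only. The 22 further recombination genes given below had a median of -0.01, with 11 below 0, the highest median among the lists of further repair genes. The first step is end resection, and the exonuclease EXO1 read 767 in the JMJD1A/JMJD1B siRNA cells and 1287 in the control siRNA cells (log2 ratio -0.75). BRCA1 and its partner BARD1 form the ubiquitin ligase that directs broken ends to recombination. BRCA1 read 782 in the JMJD1A/JMJD1B siRNA cells and 1244 in the control siRNA cells, 62.9% of the control signal, and its other probe set had a log2 ratio of -0.36. BARD1 read 951 in the JMJD1A/JMJD1B siRNA cells and 1629 in the control siRNA cells, with its 3 probe sets between -1.58 and -0.32, so every probe set of this pair was lower.

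PALB2, which bridges BRCA1 to BRCA2, read 553 in the JMJD1A/JMJD1B siRNA cells and 1166 in the control siRNA cells, a 2.11-fold lower signal from its only probe set. BRIP1, a helicase that binds BRCA1, read 669 in the JMJD1A/JMJD1B siRNA cells and 1369 in the control siRNA cells, 2.04-fold lower, and its dimmer probe set gave a log2 ratio of -1.43. All 4 measured genes around BRCA1 (BRCA1, BARD1, PALB2 and BRIP1) were thus lower by more than the probe-set SD. BRIP1 and PALB2 are also Fanconi anaemia genes, as is RAD51C, and were placed under recombination here.

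None of the 5 measured strand exchange factors differed 2-fold, against 8.53% of all measured genes lower and 8.91% higher. All 5 were below 0, against 47.9%. RAD51C, which acts in the strand exchange step, read 2753 in the JMJD1A/JMJD1B siRNA cells and 4821 in the control siRNA cells, a log2 ratio of -0.81, with its other probe set at -0.64. XRCC2, which acts in the same step, read 182 in the JMJD1A/JMJD1B siRNA cells and 258 in the control siRNA cells, a log2 ratio of -0.51. RAD51AP1, which stimulates strand pairing, read 2210 in the JMJD1A/JMJD1B siRNA cells and 3647 in the control siRNA cells (log2 ratio -0.72). The translocases RAD54L and RAD54B, which act on DNA during strand exchange, had log2 ratios of -0.48 and -0.43, within the probe-set SD.

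BLM, the helicase mutated in Bloom syndrome, dissolves double Holliday junctions together with RMI1 and RMI2. BLM read 518 in the JMJD1A/JMJD1B siRNA cells and 1213 in the control siRNA cells, 2.34-fold lower and at the 5.2 percentile of all measured genes. RMI1 read 2243 in the JMJD1A/JMJD1B siRNA cells and 4158 in the control siRNA cells, a log2 ratio of -0.89. RMI2 went the other way, with 773 in the JMJD1A/JMJD1B siRNA cells and 690 in the control siRNA cells (log2 ratio 0.16). It was the only one above 0 among the 13 listed recombination genes measured. Among the 22 further recombination genes given below, 11 were above 0. Each of these 3 genes had 1 probe set, so none has a second reading.

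On the brightest probe sets, the Fanconi anaemia genes had the pathway median nearest that of all measured genes, though not under other probe-set rules. None of 7 measured members differed 2-fold, against 8.53% of all measured genes lower and 8.91% higher. Below 0 were 6, against 47.9%, and the median log2 ratio was -0.20. By the mean of probe sets the median was -0.41, where end joining stood at -0.36. Without _x_at and _s_at probe sets it was -0.43, where nucleotide excision repair stood at -0.26. Among subunits of the core complex, the ubiquitin ligase that marks crosslinked DNA, FANCG was lowest, with 804 in the JMJD1A/JMJD1B siRNA cells and 1293 in the control siRNA cells (log2 ratio -0.69). FANCM, the translocase that anchors the complex on DNA, had a log2 ratio of -0.44 with its 3 measured probe sets between -0.46 and -0.09. FANCE stood at -0.43, FANCC at -0.20 and FANCF at -0.14, the last with a second probe set at -0.69. FANCL, the ligase subunit itself, read 1961 in the JMJD1A/JMJD1B siRNA cells and 1573 in the control siRNA cells (log2 ratio 0.32). FANCI, a substrate of that ligase, read 3911 in the JMJD1A/JMJD1B siRNA cells and 4014 in the control siRNA cells, a log2 ratio of -0.04, although a dimmer probe set read 199 in the JMJD1A/JMJD1B siRNA cells and 518 in the control siRNA cells (log2 ratio -1.38).

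**Figure D2:**
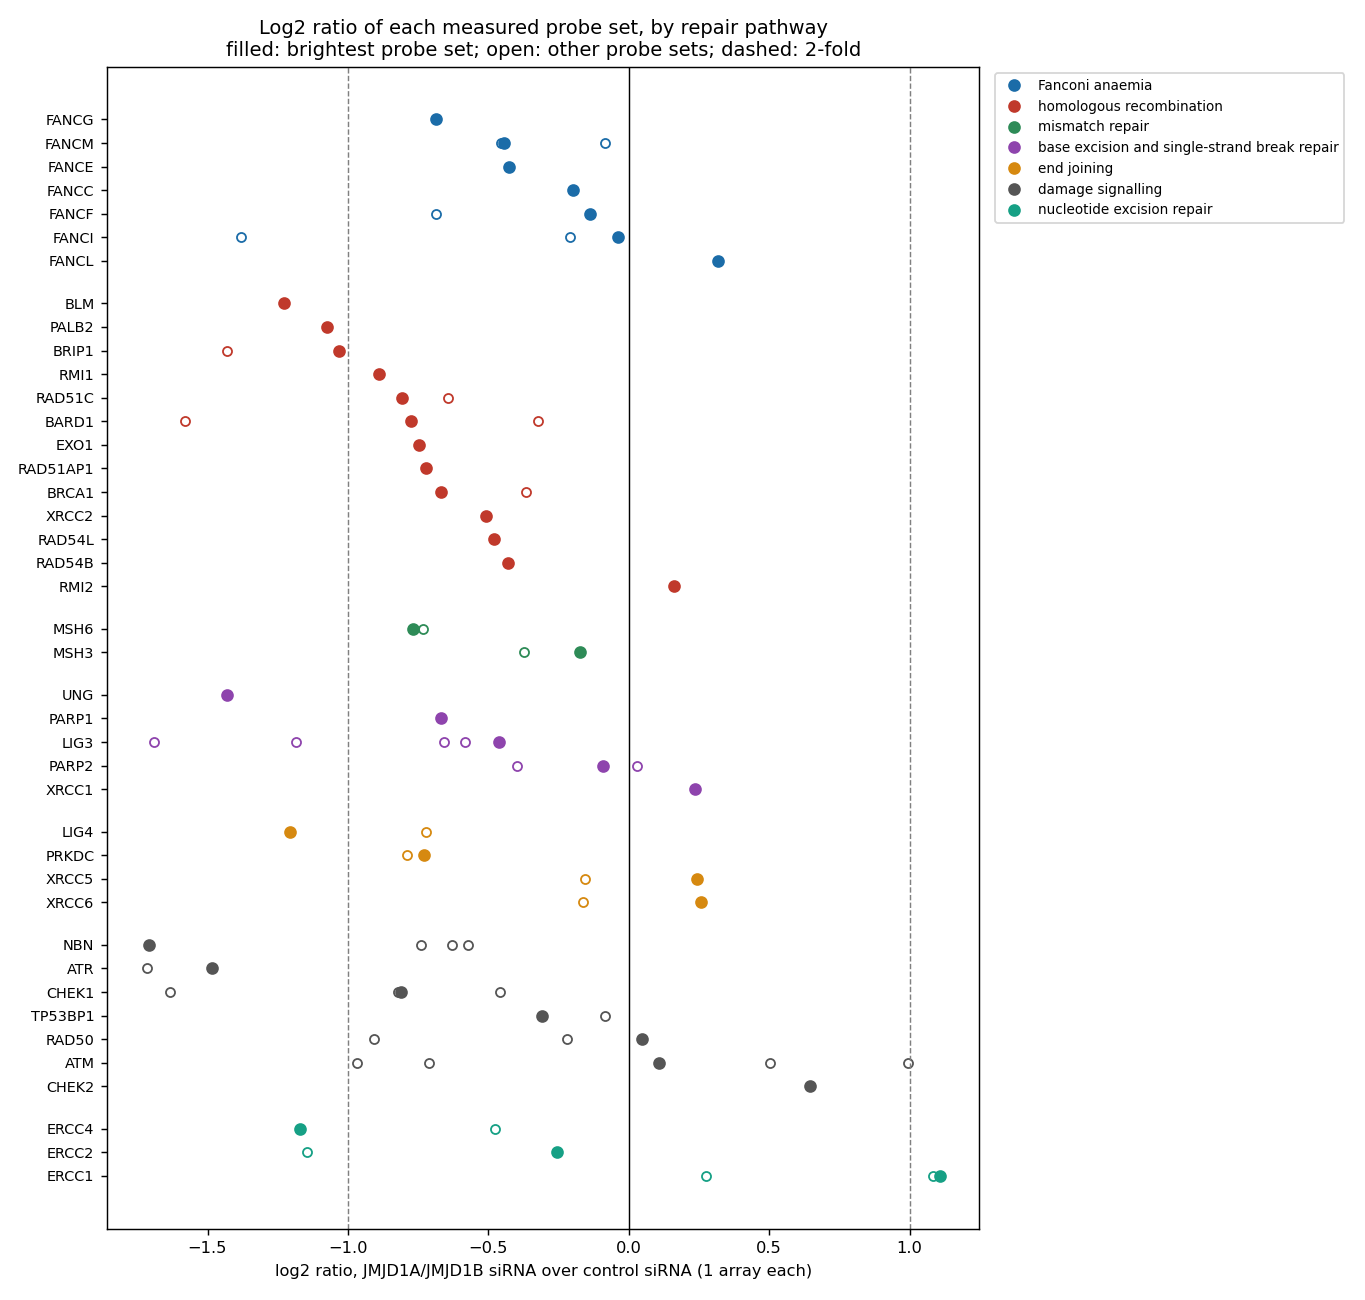
Log2 ratio, JMJD1A/JMJD1B siRNA over control siRNA, of each of the 81 measured probe sets of the repair genes, with genes down the page by pathway, filled points for the brightest probe set, open points for the others and dashed lines at 2-fold. Recombination genes form an unbroken run below 0 except RMI2, but most of them have no open point and so no second reading. Probe sets of the same gene lie far apart for ATM, LIG3, NBN, FANCI and CHEK1. The same holds for the recombination gene BARD1, from -1.58 to -0.32.

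Damage signalling genes were split. Of 7 measured genes 4 were below 0, against 47.9% of all measured genes. Past 2-fold on the lower side were 2, against 8.53%, and the median log2 ratio was -0.31. ATR, the kinase that responds to single-stranded DNA at stalled forks, read 609 in the JMJD1A/JMJD1B siRNA cells and 1704 in the control siRNA cells, 2.80-fold lower. Its second probe set gave a log2 ratio of -1.72, so both measured ATR probe sets were at least 2-fold lower. CHEK1, the kinase that ATR activates, read 962 in the JMJD1A/JMJD1B siRNA cells and 1689 in the control siRNA cells (log2 ratio -0.81), and all 4 of its probe sets were below 0, between -1.64 and -0.46.

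ATM, the kinase that responds to double-strand breaks, gave no single answer. Its brightest probe set read 238 in the JMJD1A/JMJD1B siRNA cells and 220 in the control siRNA cells (log2 ratio 0.11), while its 5 measured probe sets spread from -0.97 to 0.99. CHEK2, the kinase downstream of ATM, read 1535 in the JMJD1A/JMJD1B siRNA cells and 983 in the control siRNA cells (log2 ratio 0.64, 1 probe set), the highest ratio of the set after ERCC1. The measured ATR and CHEK1 probe sets were therefore all lower and that of CHEK2 was higher on these arrays. Levelled on the hybridization controls, the log2 ratio of CHEK2 would be 0.03.

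NBN and RAD50 belong to the complex that first binds broken ends and recruits ATM. NBN had the lowest ratio of all 41 genes, with 1306 in the JMJD1A/JMJD1B siRNA cells and 4269 in the control siRNA cells, 3.27-fold lower and at the 1.68 percentile of all measured genes. That size came from 1 probe set, since the other 3 measured NBN probe sets lay between -0.74 and -0.57, and the mean over its 4 probe sets was -0.91. RAD50 read 1309 in the JMJD1A/JMJD1B siRNA cells and 1266 in the control siRNA cells (log2 ratio 0.05), with dimmer probe sets at -0.91 and -0.22. TP53BP1, the chromatin reader that steers breaks towards end joining, had a log2 ratio of -0.31, within the probe-set SD.

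XRCC5 and XRCC6 encode the Ku heterodimer that caps broken ends, PRKDC encodes the catalytic subunit of the DNA-dependent protein kinase that Ku recruits, and LIG4 seals the joint. XRCC6 read 21394 in the JMJD1A/JMJD1B siRNA cells and 17897 in the control siRNA cells (log2 ratio 0.26), and XRCC5 read 20606 in the JMJD1A/JMJD1B siRNA cells and 17406 in the control siRNA cells (log2 ratio 0.24). The second measured probe set of each Ku gene lay at -0.16, that of XRCC6 with a signal close to the detection level used here, so the Ku genes had no agreed direction. After quantile normalization or loess the brightest probe sets turned below 0 as well, to -0.16 for XRCC5 and -0.15 for XRCC6, and the median of the 4 end joining genes was -0.47 and -0.48, against -0.24 on the deposited scale. PRKDC read 3514 in the JMJD1A/JMJD1B siRNA cells and 5824 in the control siRNA cells, with its probe sets at -0.73 and -0.79. LIG4 read 237 in the JMJD1A/JMJD1B siRNA cells and 548 in the control siRNA cells, 2.31-fold lower, with its other probe set at -0.72. The kinase and the ligase were thus lower by more than the probe-set SD on every measured probe set and the Ku subunits were not.

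In base excision and single-strand break repair 4 of 5 genes were below 0, against 47.9% of all measured genes. Their median log2 ratio over all 5 was -0.46. UNG, the glycosylase that cuts uracil out of DNA, had the largest difference in this pathway, with 3363 in the JMJD1A/JMJD1B siRNA cells and 9062 in the control siRNA cells (2.69-fold lower, 1 probe set). PARP1, the main sensor of single-strand breaks, read 3535 in the JMJD1A/JMJD1B siRNA cells and 5621 in the control siRNA cells (log2 ratio -0.67). Its relative PARP2 read 3887 in the JMJD1A/JMJD1B siRNA cells and 4144 in the control siRNA cells (log2 ratio -0.09), with the other probe sets at -0.40 and 0.03. XRCC1 is the scaffold to which the ligase LIG3 is bound. XRCC1 had a log2 ratio of 0.24 from 1 probe set, and LIG3 one of -0.46, with all 5 measured LIG3 probe sets below 0 and the lowest at -1.69.

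Mismatch repair was represented by MSH6 and MSH3, which both act in lesion recognition. MSH6, which serves base mismatches, read 2094 in the JMJD1A/JMJD1B siRNA cells and 3563 in the control siRNA cells (log2 ratio -0.77), with a second probe set at -0.73. MSH3, which serves larger loops, read 136 in the JMJD1A/JMJD1B siRNA cells and 154 in the control siRNA cells (log2 ratio -0.17). The MSH6 difference passed the probe-set SD and that of MSH3 did not.

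Of the 3 measured nucleotide excision repair genes, 1 was past 2-fold in each direction, against 8.53% of all measured genes lower and 8.91% higher. ERCC1 and ERCC4 (also named XPF) encode the subunits of 1 nuclease, which cuts the strand beside a bulky lesion. ERCC1 read 4590 in the JMJD1A/JMJD1B siRNA cells and 2130 in the control siRNA cells, 2.15-fold higher, with its other probe sets at 1.08 and 0.27. ERCC4 read 314 in the JMJD1A/JMJD1B siRNA cells and 708 in the control siRNA cells, 2.25-fold lower, with a dimmer probe set at -0.48 and a mean over both of -0.82, under 2-fold. The partners of this nuclease therefore lay on opposite sides of 0 on each of their measured probe sets. ERCC2, a helicase of the transcription factor TFIIH that opens the lesion, had a log2 ratio of -0.26 and a second probe set at -1.15.

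Further repair genes, from the same pathways and from translesion synthesis and direct reversal, were also more often below 0 than above it. Of 110 further repair genes 98 were measured, 13 were at least 2-fold lower (13.3%, against 8.53% of all measured genes) and 1 at least 2-fold higher (against 8.91%). Of the 98, 61.2% were below 0, against 47.9% of all measured genes, and the median log2 ratio was -0.16. CLSPN, the adaptor through which ATR activates CHEK1, had the lowest ratio among them, with 164 in the JMJD1A/JMJD1B siRNA cells and 687 in the control siRNA cells (4.18-fold lower, probe sets between -2.06 and -0.64). FEN1, the flap nuclease of replication and base excision repair, read 2859 in the JMJD1A/JMJD1B siRNA cells and 10898 in the control siRNA cells (3.81-fold lower, with the other probe set at -2.06). GEN1, a Holliday junction resolvase, was 3.64-fold lower, and APTX, which cleans blocked DNA ends, 3.17-fold lower with a second probe set at -0.13. RAD51B, a recombination gene, was the 1 higher gene, at 2.22-fold, with its 3 probe sets between 0.52 and 1.15.

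Among the further genes, damage signalling held the most genes at least 2-fold lower, 5 of 16, against 8.53% of all measured genes. Besides CLSPN these were TOPBP1, the activator of ATR (log2 ratio -1.10), the fork protection partners TIPIN (-1.21) and TIMELESS (-1.06), and RIF1 (-1.04), which were picked out after their values were seen. Of 22 further recombination genes, 11 were below 0, against 47.9% of all measured genes, and 3 were lower by 2-fold or more. Their median log2 ratio was -0.01, against -0.75 for the 13 above. This difference between the lists was not tested, and 3 of 22 lies near the share of all measured genes. Further nucleotide excision repair genes had a median of -0.41 with 1 of 15 at least 2-fold lower, and further Fanconi genes a median of -0.41 with 0 of 10 past 2-fold in either direction. Translesion synthesis and direct reversal genes had a median of -0.09 over 10 genes.

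Other gene groups differed between the arrays at the same time. Replication fork and origin genes, which are switched on for S phase, had a median log2 ratio of -1.13. Of 20 such genes 19 were below 0, against 47.9% of all measured genes, and 12 were at least 2-fold lower, against 8.53%. GINS3 led them at 158 in the JMJD1A/JMJD1B siRNA cells and 1075 in the control siRNA cells (6.78-fold lower). Targets of the hypoxia-inducible factors (HIF) had a median of 1.53. At least 2-fold higher were 11 of 14, against 8.91% of all measured genes, led by ANKRD37 at 12.03-fold. The part of either group in the repair gene values was not tested.

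**Figure D3:**
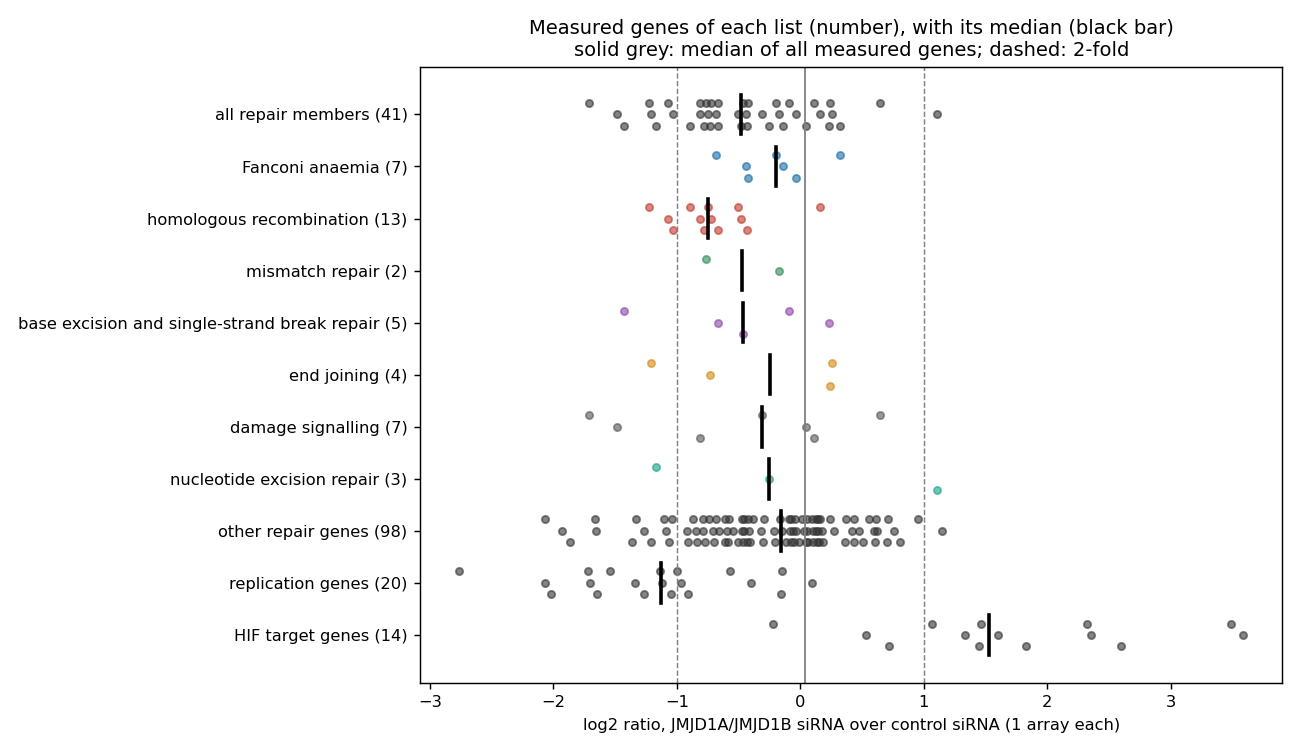
Log2 ratio, JMJD1A/JMJD1B siRNA over control siRNA, of each measured gene in the 7 repair pathways, in the further repair genes, and in the replication and HIF target lists, with a black bar at each median, a grey line at the median of all measured genes (0.04) and dashed lines at 2-fold. The bar of homologous recombination (-0.75) stands lowest of the repair pathways, to the right of that of the replication genes (-1.13).

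Promoter sequences were examined because most of these genes had ratios on the same side of 0. RefSeq windows (GRCh38.p14) from 250 bases before to 50 bases after a start site were matched by symbol for 40 of the 46 genes, 35 of them measured. FANCI, NBN, PRKDC, RAD54B, RMI2 and XRCC5 had no window. The E2F-type words searched on both strands were TTCCCGC or TTGGCGC or TTGCCGC or TTCGCGC, which can overlap each other. At least 1 such word was found in 3 of the 7 genes with a window that were at least 2-fold lower and in 19 of the 28 other measured genes, against 15.3% of all genes with a window. By window, the shares were 33.3% of 12 and 57.1% of 42, against 13.0% of all 35116 windows. The median log2 ratio was -0.59 over the 22 genes with the word and -0.46 over the 13 without it. The share was thus higher in repair gene windows than in all windows, and it was not higher among the genes at least 2-fold lower than among the other repair genes. A word match is a description of the letters and not a binding site.

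The windows below set repair genes that were lower beside repair genes whose brightest probe set was nearly level. UNG, BLM and BRIP1 are the lower genes that held an E2F-type word, and RAD50 and PARP2 the genes with a window and the log2 ratios nearest 0, although a dimmer RAD50 probe set stood at -0.91. Capitals mark the E2F-type words, and each window is written 5′ to 3′ on its gene's own strand. The windows lie at chr12:109097347-109097646 on the plus strand for UNG (the first of 2 windows), chr15:90717096-90717395 on the plus strand for BLM, chr17:61863479-61863778 on the minus strand for BRIP1, chr5:132556727-132557026 on the plus strand for RAD50 and chr14:20343385-20343684 on the plus strand for PARP2.
UNG: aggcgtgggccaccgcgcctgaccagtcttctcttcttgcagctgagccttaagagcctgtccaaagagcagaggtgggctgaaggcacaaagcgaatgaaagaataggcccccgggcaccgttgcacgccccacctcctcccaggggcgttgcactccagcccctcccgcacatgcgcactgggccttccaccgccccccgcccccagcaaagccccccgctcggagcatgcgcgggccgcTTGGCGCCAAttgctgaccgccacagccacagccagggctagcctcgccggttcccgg
BLM: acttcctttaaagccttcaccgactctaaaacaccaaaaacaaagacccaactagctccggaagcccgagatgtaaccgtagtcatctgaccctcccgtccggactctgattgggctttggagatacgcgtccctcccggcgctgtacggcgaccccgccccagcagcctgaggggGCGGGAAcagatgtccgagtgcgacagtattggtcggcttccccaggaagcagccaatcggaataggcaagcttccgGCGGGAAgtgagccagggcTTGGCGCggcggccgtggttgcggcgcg
BRIP1: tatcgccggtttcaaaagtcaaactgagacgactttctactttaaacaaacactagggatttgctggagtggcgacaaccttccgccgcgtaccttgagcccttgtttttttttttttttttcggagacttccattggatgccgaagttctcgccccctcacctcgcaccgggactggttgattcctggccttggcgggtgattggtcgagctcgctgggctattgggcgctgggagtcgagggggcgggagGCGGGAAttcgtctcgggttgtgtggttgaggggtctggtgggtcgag
RAD50: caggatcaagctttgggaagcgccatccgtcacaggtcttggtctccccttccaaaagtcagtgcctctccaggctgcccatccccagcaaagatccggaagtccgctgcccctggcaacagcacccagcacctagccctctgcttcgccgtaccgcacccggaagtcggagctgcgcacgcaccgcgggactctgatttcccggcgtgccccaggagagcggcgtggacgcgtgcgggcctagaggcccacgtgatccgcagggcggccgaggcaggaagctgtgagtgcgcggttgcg
PARP2: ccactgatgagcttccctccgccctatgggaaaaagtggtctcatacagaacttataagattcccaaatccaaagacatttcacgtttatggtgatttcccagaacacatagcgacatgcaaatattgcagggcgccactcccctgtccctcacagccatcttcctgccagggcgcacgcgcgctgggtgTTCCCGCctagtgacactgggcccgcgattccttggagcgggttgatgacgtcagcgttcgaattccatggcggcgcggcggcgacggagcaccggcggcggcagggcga
In UNG both words overlap into a single palindrome that starts 8 bases before the start site. BLM held 3 words, and BRIP1 held 1 that lies just after the start site. RAD50 held none, whereas PARP2 held 1 and had a log2 ratio of -0.09.

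Other words were counted in the same way. CCAAT, the box bound by NF-Y, was found in 5 of the 7 lower genes and 15 of the 28 others, against 39.7% of all genes with a window. CHR-type words (TTTGAA or TTCGAA), which mark genes of the late cell cycle, were found in 2 of the 7 and 5 of the 28, against 19.5% of all genes with a window. HIF-type words (ACGTG or GCGTG) were found in 4 of the 7 and 24 of the 28, against 52.4% of all genes with a window.

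Several repair genes have a neighbour on the opposite strand whose start site lies up to 1000 bases upstream in GRCh38.p14. Both genes were measured in 9 such pairs, which involve 8 repair genes, and their ratios had the same sign in 4 pairs and opposite signs in 5. ATM (log2 ratio 0.11) starts 429 bases from NPAT, a coactivator of histone genes, which read 441 in the JMJD1A/JMJD1B siRNA cells and 1042 in the control siRNA cells (log2 ratio -1.24). RMI1 (-0.89) lies opposite HNRNPK, an RNA-binding protein gene at 0.42, LIG4 (-1.21) opposite ABHD13 at 0.15, and PALB2 (-1.08) opposite DCTN5 at -0.25. CHEK2 (0.64) and its neighbour HSCB (0.61) were both higher, and RAD51AP1 (-0.72) and FERRY3 (-1.12) both lower. The remaining pairs were XRCC6 (0.26) with DESI1 (-0.61) and BRCA1 (-0.67) with NBR2 (-0.17) and NBR1 (0.76), the last near a second BRCA1 start site further upstream. Of these 9 pairs, those of CHEK2 and RAD51AP1 were beyond the probe-set SD in the same direction for both genes.

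The order of the pathways depended on how probe sets were combined and on which genes were listed. The further recombination genes had a median of -0.01, the highest among the lists of further repair genes. Homologous recombination had the lowest median on the deposited scale, at -0.75, and after loess (-0.67), quantile normalization (-0.66) and levelling on the hybridization controls (-1.36), and when the probe sets of a gene were averaged (-0.73). Without probe sets ending in _x_at or _s_at, which can match several transcripts, damage signalling rested on 5 genes, homologous recombination on 10 and mismatch repair on MSH6 alone. All 7 pathway medians were below 0 under each of these settings. With the hybridization controls set level, 25 of the 41 genes would be at least 2-fold lower, against 27.7% of all measured genes, and ERCC1 would be under 2-fold higher.

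**Figure D4:**
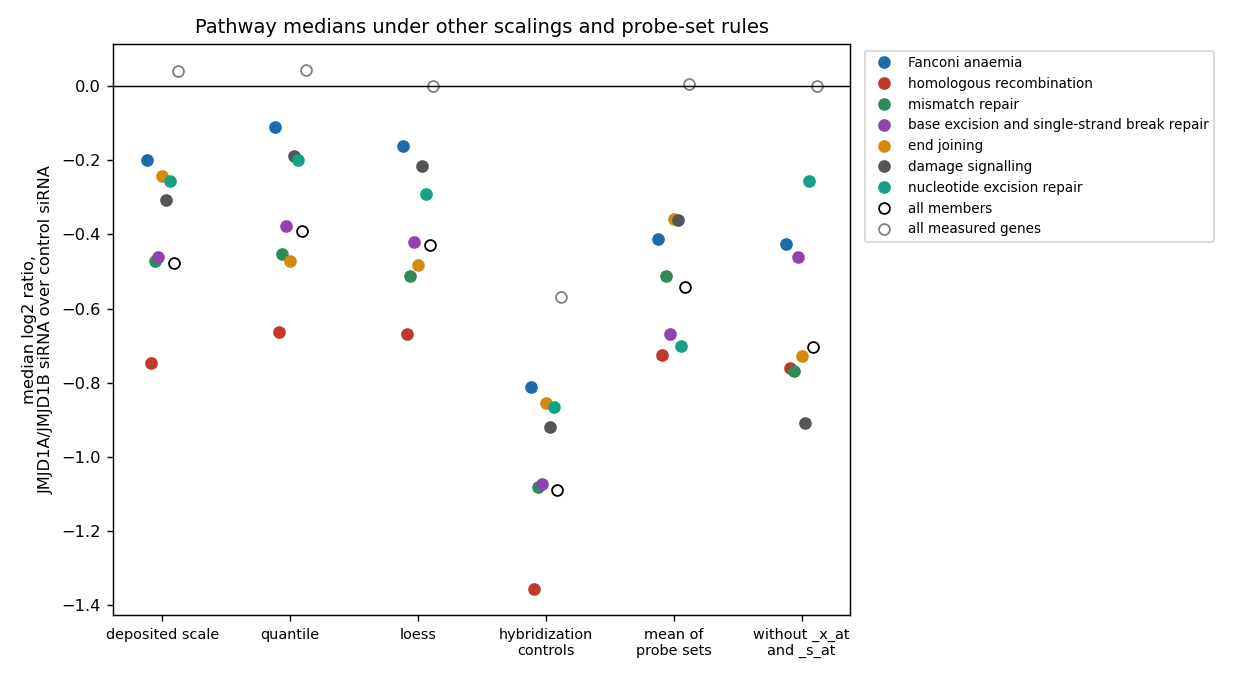
Median log2 ratio, JMJD1A/JMJD1B siRNA over control siRNA, of each repair pathway (filled points), of all 41 repair genes (open black) and of all measured genes (open grey) on the deposited scale and under 5 alternatives. All pathway medians lie below the median of all measured genes in each column, and in the hybridization control column every point shifts down by 0.61.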

How the data were processed

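Total RNA from 2 samples, 0.5 ug each, was measured on single-channel arrays, per the labels. The deposited values are linear signal intensity for 54675 probe sets. The authors made them with MAS5, according to the submitters' processing notes; its version is not given in the sources used here. The intensity values as deposited had a mean of 500.1 on both arrays after trimming 2% at each end. Arrays have no read depth, and their number limits the precision. Of the gene probe sets, 41091 carried 1 symbol in the platform annotation, 1801 several and 11721 none, and only those with 1 symbol were named.

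Signals were put on a log2 scale without a pseudocount, and ratios are JMJD1A/JMJD1B siRNA over control siRNA. Genes past 2-fold were counted and no test was run. Every measured repair gene is named, as are up to 4 further repair genes past 2-fold in each direction, the leading gene of the replication and HIF lists, KDM3A and KDM3B; other names are stated exceptions or neighbours chosen by position. Members, pathways, lists and alternatives were chosen with earlier results of these data known. Alternatives covered scaling, pseudocount, filter, probe-set rule and fold. Promoter windows and gene positions are RefSeq's. Python 3.11.15, numpy 2.4.6, pandas 2.3.3, statsmodels 0.14.6 and matplotlib 3.10.9 were used, and the steps were tested on simulated data.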

Additional observations from a re-analysis of the deposited data

Results flagged for a closer look

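The hybridization controls, spiked-in transcripts of other organisms that lie outside the gene comparison, were brighter on the JMJD1A/JMJD1B siRNA array in 18 of 18 probe sets, with a median log2 ratio of 0.61 (range 0.40 to 0.71). They report only a few transcripts and are not independent of each other. On their scale the median of the 41 repair genes would be -1.09 and that of all measured genes -0.57, and the distance between these medians would be the same by construction, at -0.52. For the ACTB control probe sets, the 3′ signal over the 5′ signal was 1.77 on the JMJD1A/JMJD1B siRNA array and 1.59 on the control siRNA array, and for GAPDH it was 0.923 on the JMJD1A/JMJD1B siRNA array and 0.914 on the control siRNA array. The part of these in the repair gene values was not tested.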

How the results depend on the processing

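No paired analysis was possible because each group held 1 array, and no replicate could be left out. The alternatives were 4 scalings, a pseudocount of 32, 3 filters, 2 probe-set rules and limits of 1.5-fold and 3-fold. The 8 genes at least 2-fold lower numbered 6 after quantile normalization (without BRIP1 and PALB2), 7 after loess or with the pseudocount (without BRIP1), and 6 without _x_at and _s_at probe sets (without NBN and UNG, of 30 measured). Of all measured genes, 7.97% were at least 2-fold lower after quantile normalization, 8.73% after loess, 6.90% with the pseudocount and 10.6% without _x_at and _s_at probe sets. By the mean of probe sets 5 repair genes were lower, without ERCC4, LIG4 and NBN, and no gene was higher (0). The shares of all measured genes there were 7.84% lower and 7.79% higher. At 1.5-fold 19 were lower and 2 higher, and at 3-fold 1 was lower (NBN) and 0 higher. No share of all measured genes was computed at 1.5-fold or 3-fold, so counts at these limits have no background beside them. For the further repair genes the lower and higher counts were 29 and 10 at 1.5-fold and 5 and 0 at 3-fold. At 2-fold, 2 of them were higher after loess or quantile normalization and 0 by the mean of probe sets. Of all measured genes, 8.16% were higher after loess and 9.21% after quantile normalization. Without _x_at and _s_at probe sets 8 of 72 measured further genes were lower and 2 higher. These lie near or below the shares of all measured genes there, 10.6% lower and 9.07% higher. On the scale of the hybridization controls 25 repair genes would be lower and 0 higher, and 42 and 0 of the further genes. Of all measured genes, 27.7% would be lower and 2.15% higher on that scale. Medians there were -1.09 for all repair genes, -0.77 for the further genes, -0.81 for Fanconi anaemia, -1.36 for homologous recombination, -1.08 for mismatch repair, -1.07 for base excision repair, -0.85 for end joining, -0.92 for damage signalling and -0.87 for nucleotide excision repair. The median of the 41 genes was -0.39 after quantile normalization and -0.70 without _x_at and _s_at probe sets, where the further genes stood at -0.27, Fanconi anaemia at -0.43, end joining at -0.73 and damage signalling at -0.91. By the mean of probe sets Fanconi anaemia stood at -0.41 and nucleotide excision repair at -0.70. These probe-set rules change which probe sets enter, and the cause of the other shifts was not tested. With no filter on dim genes the share of all genes at least 2-fold higher was 16.1%, against 8.91% with it. Among single genes, XRCC5 and XRCC6 turned below 0 after quantile normalization, loess or levelling on the hybridization controls, ATM and RAD50 by both probe-set rules and on those controls, and FANCL, RMI2 and XRCC1 on those controls.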
